A study of Mus musculus with 8 samples.

Results

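The genes described here build and feed major histocompatibility complex (MHC) class I molecules. They were measured in mouse neutrophils that entered an air pouch under the skin after lipopolysaccharide (LPS), a bacterial cell wall component, was injected into it. The list holds 10 genes, the heavy chains H2-K1 and H2-D1, the light chain B2m, Tap1, Tap2, Tapbp, Psmb8, Psmb9, Psmb10 and Nlrc5. Members were the probe sets of the array whose single gene symbol in the platform annotation is on this list. This gave 10 probe sets of 9 genes, with 2 for Tapbp, out of 23521 probe sets of 22180 genes with a single symbol. H2-D1 was read only by a probe set that the annotation also assigns to H2-Q2, so it is given separately and enters no count of members. All 10 probe sets passed the filter on dim values, a level above 5.45 (log2, the median of all values) in at least 2 arrays.

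Levels came from 8 Affymetrix Mouse Gene 2.0 ST arrays, 1 for each pool of neutrophils from 5 mice. Negative selection had left 98% Ly6G-positive cells. The Arf6 conditional knockout (cKO) was homozygous for a floxed allele of Arf6, a small GTPase of membrane traffic, and carried Cre (flox+/+Cre+/+, 3 arrays). The flox control had the floxed allele without Cre (flox+/+Cre-/-, 3 arrays), and the Cre control had Cre without the floxed allele (flox-/-Cre+/+, 2 arrays). All groups received LPS, and no untreated cells are analysed here. The sources used here give no strain, no age and no promoter that drives Cre. The design text states 3 pools per genotype, of which 1 Cre control pool is not analysed here. Groups follow the titles and genotype labels. The source field of each sample names another genotype, but Arf6 follows the genotype labels, since its probe set 17275925 read 6.06 to 6.49 in the cKO and 7.68 to 8.20 in the 5 control arrays. A second Arf6 probe set, 17281565, overlapped between them (6.13 to 6.49 and 6.20 to 6.81). The labels do not say more of how pools were separated, so p-values measure the spread between these pools.

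MHC class I molecules show peptides from inside the cell to CD8 T cells and consist of a heavy chain and beta-2 microglobulin. In cells exposed to interferon, the catalytic subunits Psmb8, Psmb9 and Psmb10 replace their constitutive counterparts and form the immunoproteasome, which cuts proteins into peptides. The transporter made of Tap1 and Tap2 moves these peptides into the endoplasmic reticulum, where tapasin (Tapbp) helps to load them, and Nlrc5 is the transcriptional activator of class I genes.

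Of the members, Tapbp, H2-K1, Psmb9, Tap1, Psmb8 and Tap2 lie on chromosome 17 in the mouse MHC, B2m on chromosome 2, and Psmb10 and Nlrc5 on chromosome 8. Among the members there, Psmb9, Tap1, Psmb8 and Tap2 follow each other in this order. RefSeq promoter windows (GRCm38.p6) were found for 8 of the 10 genes, and the 250 bases before the annotated start were searched on both strands. Shown first is a stretch of 30 bases from both heavy chain promoters, because H2-K1 and H2-D1 share it almost letter for letter (29 of 30 bases identical). Capitals mark matches to the NF-kB consensus.

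H2-K1: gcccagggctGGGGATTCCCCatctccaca

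H2-D1: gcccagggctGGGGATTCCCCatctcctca

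The H2-K1 stretch lies at chr17:34000439-34000468 on the minus strand and the H2-D1 stretch at chr17:35262913-35262942 on the plus strand. The B2m window (chr2:122147437-122147686, plus strand) is shown because it alone matched the searched core of the interferon-stimulated response element (GAAA, any 2 bases, GAAA), which began at position -139 from the start. It overlapped no other match, and an NF-kB match began at -126 and an inverted CCAAT box, the core of the Y box of class I promoters, at -53. All 3 are in capitals.

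B2m: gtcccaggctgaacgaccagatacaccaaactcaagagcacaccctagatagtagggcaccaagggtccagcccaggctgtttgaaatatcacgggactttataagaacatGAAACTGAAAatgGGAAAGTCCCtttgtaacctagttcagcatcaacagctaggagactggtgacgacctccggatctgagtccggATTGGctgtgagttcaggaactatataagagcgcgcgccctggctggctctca

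Psmb9 and Tap1 are transcribed away from each other from starts separated by 225 bases (chr17:34187331-34187555). That whole region is shown, on the strand of Tap1, because both genes share it. Its single match, in capitals, was a CCAAT box.

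Psmb9-Tap1: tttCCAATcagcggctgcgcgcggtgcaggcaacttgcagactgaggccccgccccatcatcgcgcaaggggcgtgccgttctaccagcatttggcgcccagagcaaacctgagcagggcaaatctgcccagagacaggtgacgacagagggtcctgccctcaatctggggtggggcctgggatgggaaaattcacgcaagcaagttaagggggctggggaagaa

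Of the 8 windows, 6 held CCAAT, 3 the NF-kB consensus (H2-K1, H2-D1 and B2m), 1 the interferon-stimulated response element core (B2m) and 1 the gamma-activated site, TTC and GAA around any 3 bases (Psmb8, from -97). Over the windows of all 27025 genes the shares were 34.5%, 3.75%, 3.04% and 7.18%. The member windows are not separate observations. The CCAAT box of Tap1 and that of Psmb9 are the same bases, and the NF-kB matches of H2-K1 and H2-D1 lie in the nearly identical stretch shown above. Where a gene had several starts, members were read at the most upstream and the windows of all genes at the first listed. A match describes these letters and is not a measured binding site. Only these exact patterns were searched, so a window without a match may still hold another form of an element.

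All members were read in all 8 pools, no member passed the test for a difference between genotypes, and all 9 genes ordered the cKO pools alike. How many of all genes tested shared that order was not counted. The heavy chain H2-K1 read 12.69, 12.63 and 12.50 (log2) (flox control), 12.34, 12.23 and 12.55 (cKO) and 12.64 and 12.51 (Cre control). Its cKO pools 1 and 2 lay below all controls, while the third lay among them. The light chain B2m read 14.02, 14.01 and 14.03 (flox control), 14.07, 13.91 and 14.08 (cKO) and 14.10 and 14.11 (Cre control). B2m thus lay just under the highest reading of each array (14.10 to 14.17), where a difference between groups may not show. The probe set shared by H2-D1 and H2-Q2 read 8.26, 8.34 and 8.39 (flox control), 7.93, 7.94 and 8.30 (cKO) and 8.41 and 8.32 (Cre control). As for H2-K1, pools 1 and 2 of the cKO were low and the third was not.

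Among the peptide loading genes, Tap1 read 12.53, 12.54 and 12.45 (flox control), 12.36, 12.20 and 12.52 (cKO) and 12.69 and 12.57 (Cre control). All cKO pools lay below both Cre controls, and the third overlapped the flox controls. Its partner Tap2 read 8.83, 8.96 and 8.49 (flox control), 8.75, 8.38 and 8.92 (cKO) and 9.19 and 8.96 (Cre control). Here the low pools were flox control replicate 3 and cKO replicate 2.

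Tapasin was read by 2 probe sets of unlike spread. Tapbp probe set 17336228 read 12.57, 12.35 and 12.25 (flox control), 12.19, 11.90 and 12.38 (cKO) and 12.44 in each Cre control pool. Tapbp probe set 17343675 read 9.91, 9.34 and 8.83 (flox control), 8.69, 8.24 and 9.17 (cKO) and 9.32 and 9.14 (Cre control). Both put cKO replicate 2 lowest and flox control replicate 1 highest, over a range of 0.67 in the first and 1.66 in the second. A further probe set, assigned to both Tapbp and its neighbour Zbtb22, read 6.80 to 7.65 and put cKO replicate 1 lowest instead.

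The immunoproteasome subunits and the second Tapbp probe set varied widely among flox control pools and among cKO pools, and Nlrc5 among cKO pools. The Cre control pools lay close together in Psmb8, Psmb9 and Psmb10 (standard deviation 0.02, 0.03 and 0.11). For Nlrc5 the standard deviation was 0.17 (flox control), 0.50 (cKO) and 0.16 (Cre control). Psmb8 (LMP7) read 11.79, 11.40 and 10.85 (flox control), 11.25, 10.74 and 11.45 (cKO) and 11.49 and 11.47 (Cre control). Psmb9 (LMP2) read 10.27, 9.85 and 9.28 (flox control), 9.61, 8.93 and 9.94 (cKO) and 9.95 and 9.91 (Cre control). Psmb10 (MECL-1) read 11.23, 10.30 and 9.5 (flox control), 10, 9.42 and 10.72 (cKO) and 10.87 and 10.71 (Cre control). In each of the 3 subunits flox control replicate 1 was the highest array, cKO replicate 2 the lowest and flox control replicate 3 the second lowest, so the cKO lay within the span of the flox controls but for its second pool. The standard deviation within groups, pooled over the 3 groups, was 0.38, 0.45 and 0.69 for Psmb8, Psmb9 and Psmb10. These values lay at percentiles 94.1, 96.7 and 99.6 of all probe sets tested. Tapbp probe set 17343675 (0.45) lay at 96.7 and Nlrc5 (0.34) at 91.5, whereas H2-K1 (0.13) and Tap1 (0.11) lay at 25.3 and 18.

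Nlrc5, the activator of class I transcription, set the Cre control apart. It read 10.49, 10.80 and 10.78 (flox control), 10.87, 10.19 and 11.17 (cKO) and 11.80 and 11.58 (Cre control). Both Cre control pools lay above all 6 other arrays, and the cKO pools spread to both sides of the flox controls.

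**Figure D1:**
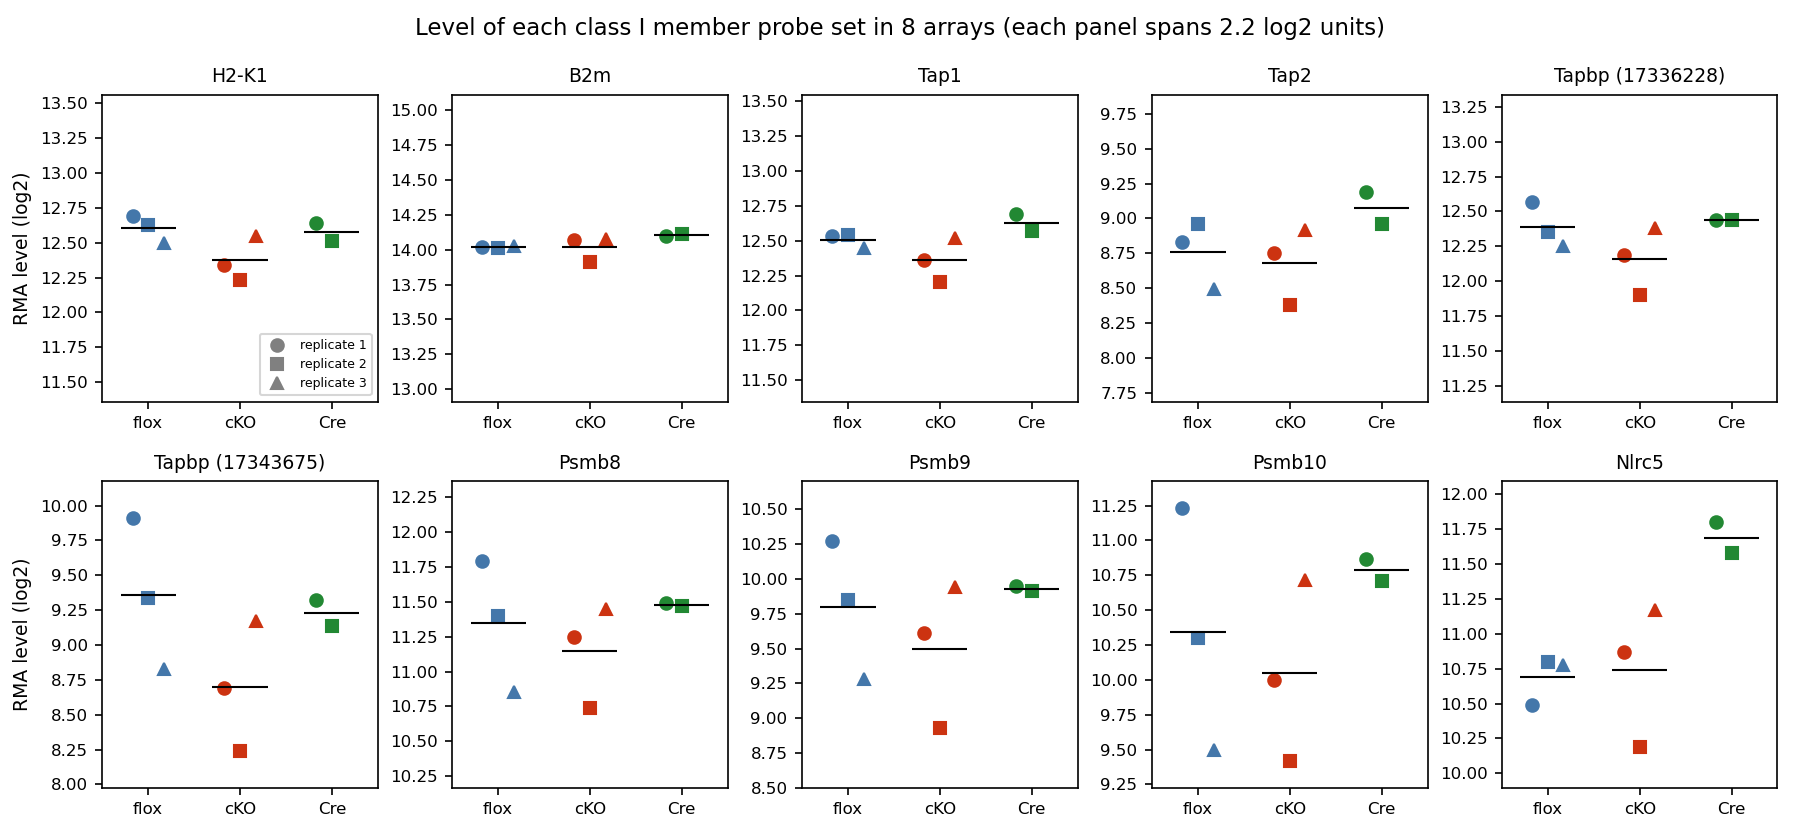
Level (RMA, log2) of the 10 member probe sets in the flox control (3 arrays), the Arf6 cKO (3 arrays) and the Cre control (2 arrays), with a point per array shaped by replicate number and a line at the group mean; replicate numbers do not pair arrays across groups. Each panel spans the same number of log2 units, so the wide spread of Psmb10 (9.42 to 11.23) can be set against the narrow one of B2m (13.91 to 14.11).

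Against both controls together (the mean of both control group means), which asks what goes with loss of Arf6, no member passed. By limma, adjusted over all 14002 probe sets tested, 0.00714% of probe sets passed. All 9 genes had a log2 fold change below 0, where 46.6% of all probe sets did, with a median of -0.26 beside 0.01 over all 13296 genes tested. The sizes were modest. H2-K1 had a log2 fold change of -0.22, SE 0.11 and interval -0.46 to 0.03 (adjusted p = 0.588 by limma), Tap1 -0.21 (SE 0.11) and Tap2 -0.23 (SE 0.16). The immunoproteasome subunits had -0.27 (SE 0.22) for Psmb8, -0.37 (SE 0.26) for Psmb9 and -0.52 (SE 0.37, 95% interval -1.36 to 0.32) for Psmb10. B2m had -0.04 (SE 0.09) and Nlrc5 -0.45 (SE 0.20). For Tapbp the estimates were -0.26 (SE 0.13) and -0.59 (SE 0.26), and the second was the 1 member probe set with an unadjusted p under 0.05 (adjusted p = 0.51, limma), where 9.52% of all probe sets had one. In no member did the 3 cKO arrays lie beyond all 5 control arrays (4.36% of probe sets). The probe set of H2-D1 and H2-Q2 had -0.29 (SE 0.12, adjusted p = 0.54, limma, over all 18662 probe sets of the table that passed the filter).

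A single pool moved this median most. The array of cKO replicate 2 was the lowest of all 8 in 9 of 9 members. The share of all genes that were lowest in this array was not counted. Of the gene lists described below, the means of interferon-stimulated genes (10.85), other class I heavy chains (7.94) and other MHC region genes (7.61) were also lowest there. The mean of dendritic cell and class II genes (8.24) was highest there. Without cKO replicate 2 the member median was -0.13, and the differences of Nlrc5, Psmb9 and Psmb8 were -0.17, -0.09 and -0.07. Leaving out other arrays gave medians between -0.37 and -0.21.

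Against the flox control, which has the same floxed allele and no Cre, no member passed either (limma, 0.0429% of probe sets called). Of the 9 genes 7 had a log2 fold change below 0 (47.6% of all probe sets), with a median of -0.20 beside 0.01 over all genes, and the arrays of the groups overlapped in all 9 (12.2% of probe sets did not overlap). H2-K1 read -0.23 (SE 0.12), Tap1 -0.15 (SE 0.12) and Tapbp -0.24 (SE 0.15), with -0.66 (SE 0.28, adjusted p = 0.59, limma) in its second probe set, the 1 member probe set with an unadjusted p under 0.05 (8.26% of all). Psmb8, Psmb9 and Psmb10 read -0.20 (SE 0.24), -0.31 (SE 0.28) and -0.29 (SE 0.42). B2m (0.00, SE 0.10), Tap2 (-0.07, SE 0.17) and Nlrc5 (0.05, SE 0.22, 95% interval -0.45 to 0.55) lay near 0. The median was 0.00 without cKO replicate 2 and -0.05 without flox control replicate 1, without which Psmb10 turned to 0.15 and Psmb8 to 0.02.

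Against the Cre control, which has Cre and no floxed allele, all 9 genes read lower (48% of all probe sets), with a median of -0.34 beside 0.01 over all genes, and no member passed (limma, 0.0714% of probe sets called). Nlrc5 had the largest difference among the members, 1.92-fold lower in the cKO (log2 -0.94, SE 0.25, 95% interval -1.50 to -0.39, adjusted p = 0.184, limma). It was the 1 member with an unadjusted p under 0.05 (13.5% of all probe sets). Psmb10 read -0.74 (SE 0.46), Psmb9 -0.44 (SE 0.32), Tap2 -0.39 (SE 0.19), Psmb8 -0.34 (SE 0.27) and Tap1 -0.27 (SE 0.13). H2-K1 read -0.20 (SE 0.14) and B2m -0.09 (SE 0.12). In 6 of the 9 genes all cKO arrays lay below both Cre control arrays (B2m, Tap1, Tap2, Tapbp, Psmb8 and Nlrc5), where 16% of probe sets did. Without cKO replicate 2 the median was -0.16 and Nlrc5 read -0.67 (adjusted p = 0.265, limma).

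The controls themselves differed in Nlrc5. It was 2-fold higher in the Cre control than in the flox control (log2 1.00, SE 0.25, 95% interval 0.44 to 1.56, adjusted p = 0.111, limma), which did not pass, and 0.486% of probe sets did. With array weights (0.93, adjusted p = 0.0257), in a fit of these groups alone (1.00, adjusted p = 0.0397) or without cKO replicate 2 (1.00, adjusted p = 0.0219) Nlrc5 passed in limma. It was the 1 member with an unadjusted p under 0.05 (14.7% of probe sets). The other members had smaller estimates, among them Psmb10 (0.45, SE 0.46), Tap2 (0.31, SE 0.19), Tap1 (0.13, SE 0.13), B2m (0.09, SE 0.12) and H2-K1 (-0.03, SE 0.14). Of the 9 genes 1, H2-K1, was below 0 (50.8% of probe sets). The median over members was 0.13 beside 0.00 over all genes, and 0.35 without flox control replicate 1. In 3 of 9 genes both Cre control arrays lay above all flox controls (B2m, Tap1 and Nlrc5, 15.3% of probe sets). The comparisons share arrays, so the low Nlrc5 of the cKO against the Cre control and the high Nlrc5 of the Cre control against the flox control both contain the same 2 Cre control pools.

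**Figure D2:**
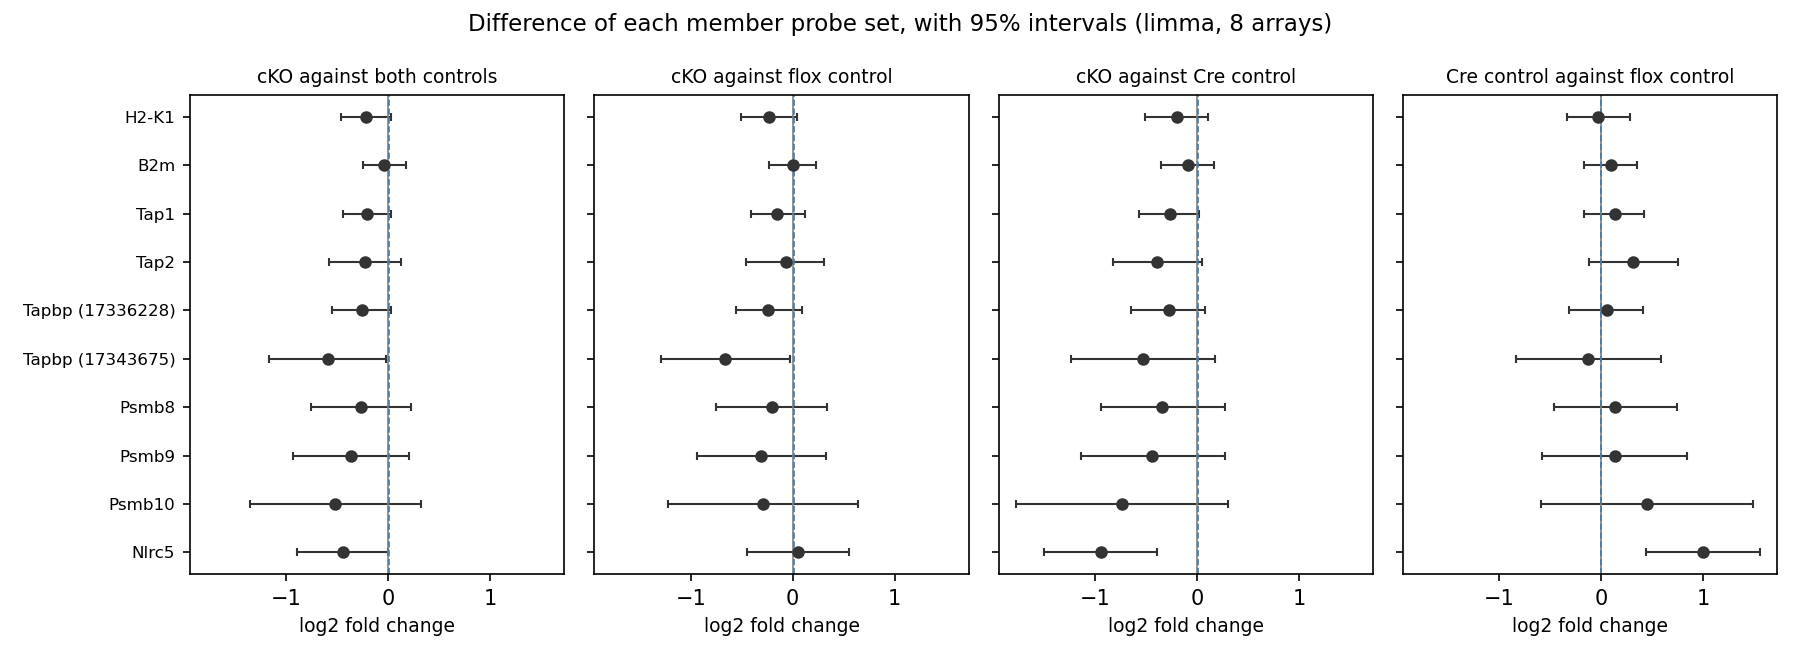
Log2 fold change of each member probe set in the 4 comparisons, with 95% intervals from the limma fit; the grey line marks 0 and the dashed line the median of all genes tested. Intervals are wide for Psmb10 (-1.36 to 0.32 against both controls) and narrow for B2m. Those of Nlrc5 leave out 0 in the comparisons of the cKO and of the flox control with the Cre control. Those of Tapbp probe set 17343675 leave out 0 for the cKO against both controls (-1.17 to -0.02) and against the flox control (-1.29 to -0.03).

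All 9 genes had their highest cKO level in replicate 3 and their lowest in replicate 2. How many of all genes shared this order, or the flox control order given next, was not counted. In the flox control 5 of 9 (H2-K1, Tapbp, Psmb8, Psmb9 and Psmb10) stood, from high to low, in the order of replicates 1, 2 and 3, and B2m, Tap1, Tap2 and Nlrc5 had other orders. As a description over 8 arrays that include 3 genotypes, Psmb8 and Psmb9 had a Pearson r of 0.989, Psmb8 and Psmb10 0.972, and Psmb9 and Psmb10 0.96, although Psmb10 lies on another chromosome than the other subunits. Psmb9 and Tap1, which share the 225 bases shown above, had 0.797, and Tap1 and Tap2, the partners of the transporter, 0.887. Nlrc5 was least like the rest, with 0.584 against the mean of the other members, where the others had 0.761 (B2m) to 0.928 (Psmb9). Among pairs, Nlrc5 was most like B2m (0.907) and least like H2-K1 (0.419). With each array set against its own group mean, r with the other members was 0.518 for Nlrc5 and 0.678 to 0.974 for the others. Nlrc5 parted from the others most in flox control replicate 1, which deviated from the mean of all arrays by 0.88 in Psmb10, 0.56 in Psmb9 and 0.49 in Psmb8 but by -0.47 in Nlrc5. The deviation of this array was smaller in Tapbp (0.26) and H2-K1 (0.18) and near 0 in Tap1 (0.05), Tap2 (0.02) and B2m (-0.03).

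Averaged over the 9 members, the arrays deviated by 0.21, 0.04 and -0.26 (flox control), -0.12, -0.51 and 0.14 (cKO) and 0.30 and 0.20 (Cre control). The gene most like this profile was Socs1 (r = 0.997 over 8 arrays), the feedback inhibitor of interferon signalling. It read 10, 9.58 and 8.99 (flox control), 9.41, 8.51 and 9.85 (cKO) and 10.19 and 9.96 (Cre control). Next came Il27 (0.992), a subunit of the cytokine interleukin 27, Gm12250 (0.989), the transcription factor Elf1 (0.988), the acetyltransferase subunit Naa25 (0.988), the necroptosis effector Mlkl (0.986), 4933412E12Rik (0.983) and Mitd1 (0.982). Of 13287 other genes tested, 190 (1.43%) had an r of at least 0.9. Il27 and Mlkl ranged over 2.10 and 1.96 log2 units, more than any member.

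**Figure D3:**
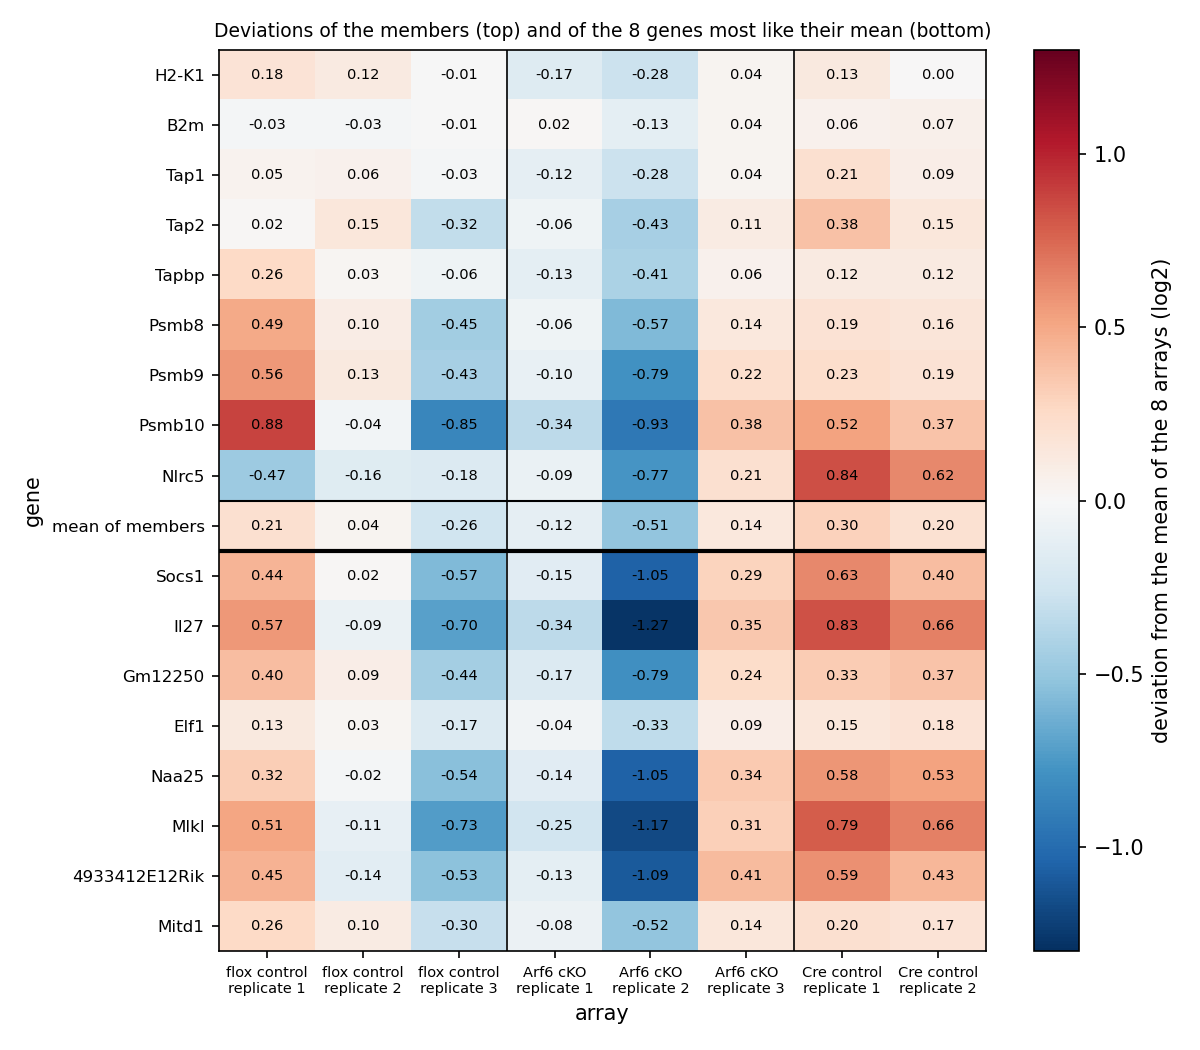
Deviation (log2) of each member, of their mean and of the 8 genes with the most similar profile from the gene's mean over the 8 arrays, by array. The column of cKO replicate 2 is below 0 in every member (-0.51 on average), and Nlrc5 departs from the others in flox control replicate 1 (-0.47).

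The other genes of class I assembly did not pass in any of the 4 comparisons (limma, adjusted over all probe sets). Peptide loading and folding genes (10 tested of 10 listed) had a median of 0.01 when the cKO was set against both controls. Against the flox and Cre controls taken alone it was -0.01 and 0.05. Hspa5 (BiP), a chaperone of the endoplasmic reticulum, read 11.10, 10.87 and 10.85 (flox control), 10.54, 10.64 and 10.70 (cKO) and 10.87 and 10.72 (Cre control). All cKO arrays lay below all controls, by -0.24 on average (SE 0.11, adjusted p = 0.523, limma). The tapasin relative Tapbpl had the largest estimate. It read 9.21, 8.58 and 7.98 (flox control), 8.01, 8.04 and 8.81 (cKO) and 9.11 and 9.01 (Cre control), a difference of -0.54 (SE 0.27, adjusted p = 0.579, limma) from both controls. Calreticulin (Calr, 0.01, SE 0.17), calnexin (Canx, 0.18, SE 0.14) and Pdia3 (0.05, SE 0.13), further chaperones of heavy chain folding, and the glycoprotein sensor Uggt1 (0.23, SE 0.12) read at or above the controls.

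Peptide trimming enzymes (8 tested of 9 listed) had a median of 0.21 against both controls and 0.19 against the flox control, with 6 and 7 of 8 above 0. Against the Cre control the median was 0.06, with 5 of 8 above 0. Of all probe sets 46.6%, 47.6% and 48% lay below 0 in these comparisons. The smallest p values against both controls were those of the peptidases Nrd1 (0.33, SE 0.15, adjusted p = 0.523, limma), Tpp2 (0.21, SE 0.11) and Ide (0.26, SE 0.15). Nrd1 read 10.40 to 10.74 (flox control), 10.54 to 11.08 (cKO) and 10.24 and 10.26 (Cre control). Erap1, which trims peptides in the endoplasmic reticulum, read 7.85, 7.65 and 7.00 (flox control), 7.75, 7.08 and 8.08 (cKO) and 8.28 and 8.33 (Cre control). Its estimates were -0.26 (SE 0.24) against both controls and 0.81 (SE 0.30, adjusted p = 0.252, limma) for the Cre control over flox controls. The cytosolic aminopeptidase Lap3 read 5.82 to 6.33 (flox control), 6.45 to 6.77 (cKO) and 6.42 and 7.03 (Cre control) (0.57, SE 0.19, adjusted p = 0.472, cKO against flox control, limma).

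The proteasome outside its inducible subunits gave medians of 0.09 (constitutive catalytic subunits), 0.00 (other core subunits) and 0.00 (activators and assembly factors) against both controls. The constitutive catalytic subunits that Psmb8, Psmb9 and Psmb10 replace, Psmb5, Psmb6 and Psmb7, had -0.05 (SE 0.18), 0.15 (SE 0.11) and 0.09 (SE 0.14) against both controls. The other core subunits (10 tested of 11 listed) were split into 5 higher and 5 lower, with Psmb3 at 0.23 (SE 0.10), Psma6 at -0.21 (SE 0.10) and Psma3 at -0.16 (SE 0.14). Among activators and assembly factors (8 tested of 9 listed), Psme4, a nuclear activator subunit, read 8.78, 8.93 and 9.07 (flox control), 8.81, 8.59 and 9.03 (cKO) and 9.28 and 9.42 (Cre control). Its flox control pools stood in the reverse of the order of the immunoproteasome subunits, and its estimates were -0.33 (SE 0.13, adjusted p = 0.454, limma) against both controls and -0.54 (SE 0.16, adjusted p = 0.217) against the Cre control. Psme3, another activator subunit, read 6.52 to 6.60 (flox control), 6.64 to 6.89 (cKO) and 6.39 in each Cre control pool, with all cKO arrays above all controls (0.25, SE 0.10, adjusted p = 0.471, limma). Psme1, a subunit of the interferon-inducible proteasome activator, read 11.72, 11.09 and 10.79 (flox control), 11.08, 10.51 and 11.31 (cKO) and 11.44 and 11.27 (Cre control). It had the order of the immunoproteasome subunits in the flox and cKO pools. Its difference from both controls was -0.31 (SE 0.23, adjusted p = 0.737, limma), beside -0.19 (SE 0.13) for its partner Psme2. The flox control order was not particular to these genes. From replicate 1 to 3 the means of constitutive catalytic subunits (8.68, 8.49 and 8.15), other core subunits (8.30, 8.12 and 7.89) and neutrophil markers (12.82, 12.74 and 12.71) fell too. The mean of the peptide trimming enzymes (7.43, 7.57 and 7.37) had another order.

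The non-classical and other class I heavy chains (12 tested of 24 listed) read lower in 10 of 12 against both controls, and none passed. Their median was -0.17 beside 0.01 over all genes, and 46.6% of all probe sets read lower. H2-M3, which presents formylated bacterial peptides, read 8.80, 8.64 and 8.33 (flox control), 7.95, 7.87 and 8.52 (cKO) and 8.89 and 8.75 (Cre control) (-0.59, SE 0.17, adjusted p = 0.359, limma). H2-T10 read 8.74, 8.46 and 7.89 (flox control), 7.83, 7.56 and 8.30 (cKO) and 8.76 and 8.30 (Cre control) (-0.55, SE 0.23, adjusted p = 0.487, limma). In both genes the third cKO pool reached the controls. H2-Q4 differed by -0.22 (SE 0.12). H2-T24 read 10.67 to 10.73 (flox control), 10.64 to 10.77 (cKO) and 11.03 and 11.13 (Cre control), so it stood apart in the Cre control as Nlrc5 did (0.37, SE 0.12, adjusted p = 0.18, Cre control against flox control, limma). Some of the H2-K, D, Q and T genes are close in sequence, and their probe sets may read RNA of more than 1 of them.

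Genes that control class I transcription and interferon signalling (23 tested of 25 listed) had a median of -0.16 against both controls with none past the threshold. The receptor chain Ifnar1 read 11.70 to 11.84 (flox control), 11.10 to 11.29 (cKO) and 11.12 and 11.13 (Cre control). Both groups with Cre thus lay below the flox control, by -0.56 (SE 0.11, adjusted p = 0.229, limma) in the cKO and -0.63 (SE 0.12, adjusted p = 0.0584, limma) in the Cre control. Socs3, a feedback inhibitor of cytokine signalling, read 12.36, 12.44 and 12.37 (flox control), 12.10, 11.64 and 12.17 (cKO) and 12.28 and 12.22 (Cre control). All cKO arrays lay below all controls (-0.35, SE 0.13, adjusted p = 0.447, limma). Irf8, a transcription factor, read 6.55 to 7.20 (flox control), 6.94 to 7.34 (cKO) and 7.65 and 7.66 (Cre control). The kinase Tyk2 read 8.87 to 9.12 (flox control), 8.46, 8.46 and 8.91 (cKO) and 9.28 and 9.05 (Cre control) (-0.46, SE 0.14, adjusted p = 0.369, against both controls, limma). Rfx5, a DNA-binding partner at class I promoters, read -0.32 (SE 0.16, adjusted p = 0.58, limma) against both controls, -0.25 (SE 0.18) against flox controls and -0.39 (SE 0.20) against Cre controls, and 0.14 (SE 0.20) between the controls.

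Interferon-stimulated genes had a mean level that ordered the pools of each genotype as the mean of the members did. Their mean level (35 tested of 40 listed) was 11.37, 11.27 and 11.07 (flox control), 11.13, 10.85 and 11.42 (cKO) and 11.65 and 11.58 (Cre control). The mean level of the members was 11.60, 11.43 and 11.13 (flox control), 11.27, 10.88 and 11.53 (cKO) and 11.69 and 11.58 (Cre control). With both controls as reference 33 of 35 read lower in the cKO (median -0.26). With flox controls 29 of 35 did (median -0.10) and with Cre controls 35 of 35 (median -0.38), and none passed. Of all probe sets 46.6%, 47.6% and 48% read lower in these comparisons, and the median over all genes was 0.01 in each. The smallest p values against both controls were those of Mx2 (-0.78, SE 0.25, adjusted p = 0.389, limma), Gbp5 (-0.46, SE 0.17) and Isg15 (-0.26, SE 0.10). Between the controls 32 of 35 read higher in the Cre control (median 0.21), where 50.8% of all probe sets read lower and the median over all genes was 0.00. The antiviral GTPase Mx1 was the 1 gene of the list that passed (log2 1.64, SE 0.27, adjusted p = 0.0409, limma), as did 0.486% of all probe sets.

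Genes that share the chromosomal region but not the function were also examined. Other genes of the MHC region (63 tested of 70 listed) had a median of -0.01 with the cKO set against both controls, of -0.06 against flox controls alone and of 0.07 against Cre controls alone, and none passed. Their mean level was 7.89, 7.80 and 7.62 (flox control), 7.69, 7.61 and 7.73 (cKO) and 7.69 and 7.64 (Cre control). The arrays of each genotype thus stood in the order of the mean of the members, over a narrower range, and flox control replicate 1 was the highest of all 8. The smallest p values against both controls were those of Neu1 (-0.31, SE 0.10, adjusted p = 0.417, limma), Daxx (-0.42, SE 0.17) and Cfb (-0.66, SE 0.28).

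**Figure D4:**
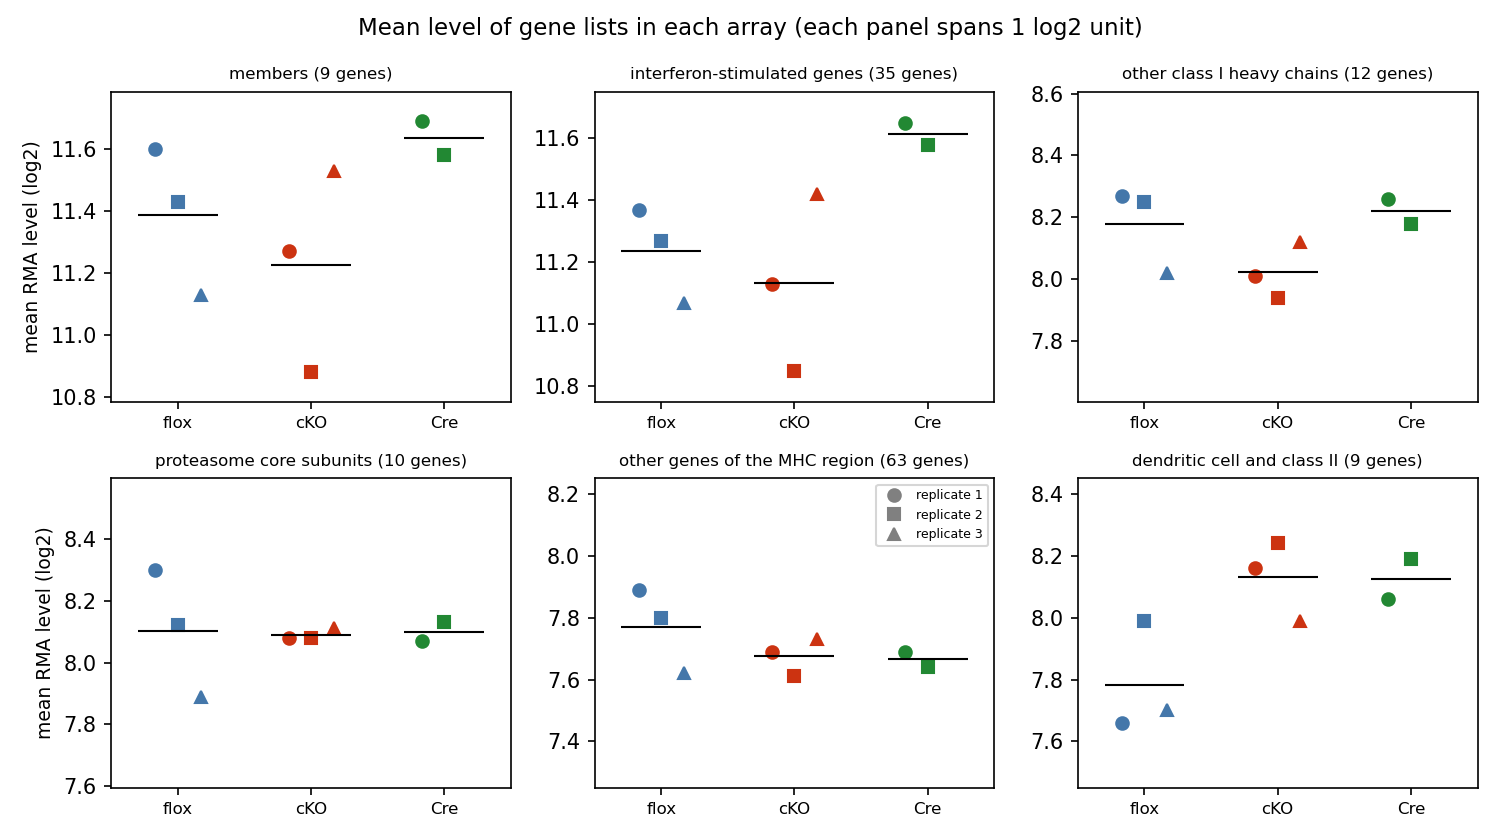
Mean level (RMA, log2) of 6 gene lists in each array, with a point per array shaped by replicate number and a line at the group mean. Members and interferon-stimulated genes have their lowest array in cKO replicate 2 (10.88 and 10.85), where the class II list has its highest (8.24). Other class I heavy chains (7.94) and other genes of the MHC region (7.61) are also lowest there, the latter close to flox control replicate 3 (7.62).

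Neutrophil markers were high in all arrays, with S100a8 between 13.10 and 13.36 and Csf3r between 13.23 and 13.46, as the label has it. The neutrophil list averaged 12.71 to 12.82 in flox controls, 12.57 to 12.73 in the cKO and 12.50 to 12.53 in Cre controls. Markers of other cell types were also read. The dendritic cell and class II list (9 of 10 tested) averaged 7.66 to 7.99 in the flox controls, 7.99 to 8.24 in the cKO and 8.06 to 8.19 in the Cre controls, with H2-Ab1 at 10.14 to 11.17, while Xcr1 (5.44 to 5.78) and Zbtb46 (5.22 to 5.5) lay around the filter level. Macrophage and monocyte markers (11 of 12 tested) averaged 8.14 to 8.64, 8.39 to 8.58 and 8.68 to 8.73 in the same groups. T and NK cell markers (9 of 12 tested) averaged 6.09 to 6.45, 6.52 to 6.69 and 6.75 to 6.95. Among them Il7r (7.40 to 8.57), Nkg7 (7.19 to 8.18) and Gzma (6.69 to 8.46) lay above the filter level in all arrays. So did Cd3e (5.65 to 7.19), Cd3d (5.47 to 6.48) and Ncr1 (5.69 to 6.76). Cd3g (4.79 to 6.58), Cd8a (5.33 to 5.83) and Cd2 (5.11 to 5.86) lay on both sides of it. Cd4 (4.66 to 5.20) and Klrb1c (4.64 to 5.37) lay under it in all arrays. The means of the macrophage and T and NK lists, like Nlrc5, were highest in the Cre control. Not every gene of these lists was. Cd3d averaged 6.12 (flox control), 5.89 (cKO) and 5.64 (Cre control), and Cd68 12.49, 12.67 and 12.32 in the same groups. Eosinophil and mast cell markers (4 of 8 tested) averaged 7.32 to 8.21 over all arrays, fibroblast and endothelial markers (7 of 8 tested) 6.55 to 7.55 and B cell markers (2 of 5 tested) 5.48 to 5.68, and no erythroid marker had a probe set of its own. The part of these cells in the values of the members was not tested. In pooled cells, fewer cells of a type and less RNA per cell cannot be told apart.

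Sex-linked transcripts set 2 pools apart. Xist read 5.46 in flox control replicate 1 and 7.84 to 10.21 elsewhere, and Eif2s3y 4.08 in cKO replicate 1 and 8.66 to 10.04 elsewhere. Without these pools the member median for the cKO was -0.23 with both controls as reference, -0.11 with flox controls and -0.39 with Cre controls, and it was 0.35 for Cre over flox controls. No member passed in any of them (limma).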

How the data were processed

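The authors deposited a log2 level for each probe set, made with background subtraction and normalization by Robust Multiarray Analysis (RMA) in Affymetrix Expression Console, per the series' design text. No software version was stated in the sources. Array medians lay between 5.41 and 5.48, and no further scaling was applied. Probe sets with 1 gene symbol (23521 of 34472) were used, and 1814 with several and 9137 with none were left out of the counts.

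The 8 arrays entered 1 limma fit of 3 group means (limma 3.58.1, R 4.3.3), whose moderated tests had 5 residual plus 4.69 prior degrees of freedom. Two-sided p-values of the 14002 probe sets past the filter were adjusted after Benjamini and Hochberg, and those under 0.05 were called. Errors are standard errors of that fit. Medians and list counts used 1 probe set per gene, that with the highest mean. The fit was tested on simulated data. The number of arrays limits the precision.

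All probe sets of the members were described. Of each other pathway list, genes past the threshold and the 3 with the smallest p for the cKO against both controls were named, as were Arf6 and the 8 genes most correlated with the mean of the members. Of the 3 with the smallest p in each other comparison, only some were named (Canx, Lap3, Erap1, Psme1, H2-T24 and Irf8), chosen after their values were seen, as were Calr, Pdia3, Rfx5 and the marker genes. The members and lists were chosen with earlier results of these data known. Alternatives were other filters, scalings, variance models, fits, probe set averaging and omitted arrays.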

Additional observations from a re-analysis of the deposited data

How the results depend on the processing

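Over 18 other settings no member passed in any comparison of the cKO. Between the controls 1 member, Nlrc5, passed with array weights, when only the compared groups were fitted and in 1 omission of an array (cKO replicate 2; 0 to 1 members over the omissions). Its log2 difference between the controls was 0.88 to 1.11 over all settings, with adjusted p between 0.0219 and 0.556 in limma. Member medians over all settings were -0.37 to -0.13 with both controls as reference, -0.32 to 0.00 with flox controls, -0.49 to -0.16 with Cre controls and 0.03 to 0.35 between the controls. Signs turned in 26 cases, none past the threshold, and the cause was not tested. For the cKO over flox controls, B2m read -0.04 with quantile scaling, and leaving out both pools set apart by sex-linked transcripts gave -0.02 for B2m, -0.11 for Nlrc5 and 0.17 for Psmb10. Between the controls, Tapbp read -0.04 with its probe sets averaged, and the same omission gave 0.14 for its second probe set and 0.01 for H2-K1. With 1 array left out, the cKO over flox controls read -0.45 to 0.02 for Psmb8, -0.03 to 0.05 for B2m, -0.16 to 0.33 for Nlrc5, -0.72 to 0.15 for Psmb10 and -0.21 to 0.08 for Tap2, and B2m over both controls -0.07 to 0.01. Between the controls these omissions gave -0.02 to 0.14 and -0.40 to 0.14 for the probe sets of Tapbp, -0.10 to 0.03 for H2-K1, -0.12 to 0.35 for Psmb8 and -0.13 to 0.36 for Psmb9. Where 1 Cre control array was left out, the other was assumed to vary like the other groups. No paired analysis was possible because the labels give the groups no shared replicate numbers. Readings near the highest of an array (B2m) may hide a difference.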
